A study of Homo sapiens with 12 samples.

Results

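The response to indirect co-culture that 2 glioblastoma cell lines have in common was examined in 12 of the 12 arrays of the series, the 6 co-culture arrays against the 6 monoculture arrays, with the cell line as a covariate. U373 and U87MG are established human glioblastoma lines, each a single line rather than a set of tumors. In co-culture the lines shared 3 ml of medium for 72 h across a membrane with pores of 0.4 µm, U373 in the insert and U87MG in the well underneath, after 3 h of adhesion. Each monoculture was kept in the chamber its line had in co-culture and was also given 3 ml of medium, and no group received a further agent. The 4 groups, U373 monoculture, U373 co-culture, U87MG monoculture and U87MG co-culture, each hold 3 biological replicates, with 1 Illumina HumanWG-6 v3 array per replicate. A co-culture well therefore held the cells of both lines in the volume that a monoculture gave to 1 line, so the presence of the other line and the number of cells per ml of medium cannot be told apart, and each line was tied to 1 chamber. Co-cultured U373 and U87MG cells came from shared wells, and which arrays share a well is not stated in the sources used here, so the 6 co-culture arrays may not be 6 independent cultures and p-values over both lines may be too small.

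Cells on either side of such a membrane exchange soluble proteins and metabolites but do not touch. Inflammatory and nutrient programs are known to answer to such exchange. Inflammatory signaling runs through NF-κB, a family of transcription factors held in the cytoplasm by inhibitors until a cytokine such as interleukin 1 or TNF releases them, after which they switch on chemokines, cytokines and their own inhibitors. Shared medium can also lose oxygen, glucose and amino acids and gain lactate: low oxygen stabilizes the hypoxia-inducible factors, and lack of amino acids or stress in the endoplasmic reticulum raises the transcription factor ATF4.

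Values are the logarithm to base 2 of normalized intensity, and an effect is the mean difference, co-culture minus monoculture, on that scale, so that 1 stands for a doubling. Of 18665 genes with a probe of their own, 10609 were above background on at least 3 arrays and were tested. Background limits ran from 4.36 to 5.71 over the arrays, with 23.8% to 34.1% of an array's probes above them. The array with the highest limit was U373 monoculture replicate 2 and that with the lowest was U87MG co-culture replicate 2. Correlations were 0.9768 to 0.9888 between replicates of a group and 0.9091 to 0.9269 between U373 and U87MG arrays. Genes particular to U87MG or U373 were taken from earlier results of these same data, so their counts are no independent check of the lines. Of 9 genes found only in U87MG, 9 were at background on the U373 monoculture arrays and 8 on the U373 co-culture arrays, the exception being CPE. Of 6 genes found only in U373, 6 were at background on the U87MG monoculture arrays and 5 on the co-culture arrays, the exception being IGFBP5, and the mean level of the 6 was 3.27 to 3.40 against 3.03 to 4.08. The part of cells or RNA of the other line in these values was not tested. Of 8 astrocyte genes examined, both lines had SLC1A3 and GJA1 above background, whereas GFAP, the defining astrocyte filament, was above background in U373 only. The remaining 5 were at background on all U373 arrays, and 6 of the 8, GFAP among them, on all U87MG arrays. Of 9 microglia and macrophage genes, CD68 and CSF1R were above background on all arrays of both lines. In each of the 4 groups, 6 of the 9 were at background on all 3 arrays. Of 5 neuron genes, SYT1, SNAP25 and GAD1 were above background on all U87MG arrays. At background on all 3 arrays of a group were 2 of the 5 in each U373 group and 1 in each U87MG group.

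The mean levels of the chemokine genes CXCL8, CXCL2 and CCL2 were higher in co-culture in both lines, with main effects over both lines of 2.97, 1.81 and 1.37 on the log2 scale, as were those of the interleukin 1 gene IL1A with 1.76 and the tissue factor gene F3 with 0.86. Genes that answer to low oxygen, such as BNIP3L (0.60) and ERO1A (0.56), and the amino acid transporter gene SLC38A2 (0.56) had smaller values, and PHLDB1 (-0.49), which encodes a cytoskeletal adaptor, was lower in both lines. None of these differences passed the test of the main effect over both lines. The smallest adjusted p was 0.0813 (limma, Benjamini-Hochberg over 10609 genes), so 0 genes were called in either direction. At an unadjusted p under 0.05, 899 genes (8.47% of those tested) were higher and 245 (2.31%) were lower in co-culture, together 1144 (10.8%). The high share of higher genes, 78.6% of the 1144, depended on the scaling of the arrays: a further quantile normalization, which moved the median effect of all genes from 0.0481 to -0.0052, left 530 higher and 566 lower, or 48.4% higher. Leaving out single arrays gave 642 higher genes at the least, without U87MG co-culture replicate 2, and 1283 at the most, without U373 co-culture replicate 1. Of the 10609 genes, 8395 were above background on all 3 arrays of a culture in both lines, and 806 of these were higher and 212 lower at an unadjusted p under 0.05 when fitted alone. The median standard error of an effect was 0.122, and 184 genes had an effect of at least 0.5 in either direction, 12 of them of at least 1. These ranged from -1.63 for TXNIP to 2.97 for CXCL8. Because each array holds the RNA of a whole culture, a difference in every cell and a difference in a share of the cells cannot be told apart.

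The additive model takes a difference between the lines as error. In a model of 4 group means, whose error holds only the spread between replicates, the mean effect of both lines passed the test for 3 genes, all higher (0.0283% of those tested): CCL2 (adjusted p = 0.000157), CXCL8 (adjusted p = 0.000157) and CXCL2 (adjusted p = 0.0150). All 3 encode secreted chemokines, CCL2 a chemoattractant for monocytes and both CXC members chemoattractants for neutrophils. These are the genes with a large effect in U373, so that this model answers whether the mean of the lines differs from 0 and not whether both lines took part.

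The arrays themselves show how far the lines agree. In 94 genes (0.886% of those tested) all 3 co-culture arrays lay above all 3 monoculture arrays in U373 and in U87MG, and in 17 (0.16%) they lay below in both. In 64 genes (0.603%) the arrays were separated in both lines but in opposite directions. After quantile normalization the first 2 counts were 51 and 50, of which 40 and 8 genes were the same. In the plot of the effect in each line, CXCL8 has 5.01 in U373 and 0.94 in U87MG. F3 lies near the line of equal effects, though its U87MG monoculture values are close to background.

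**Figure D1:**
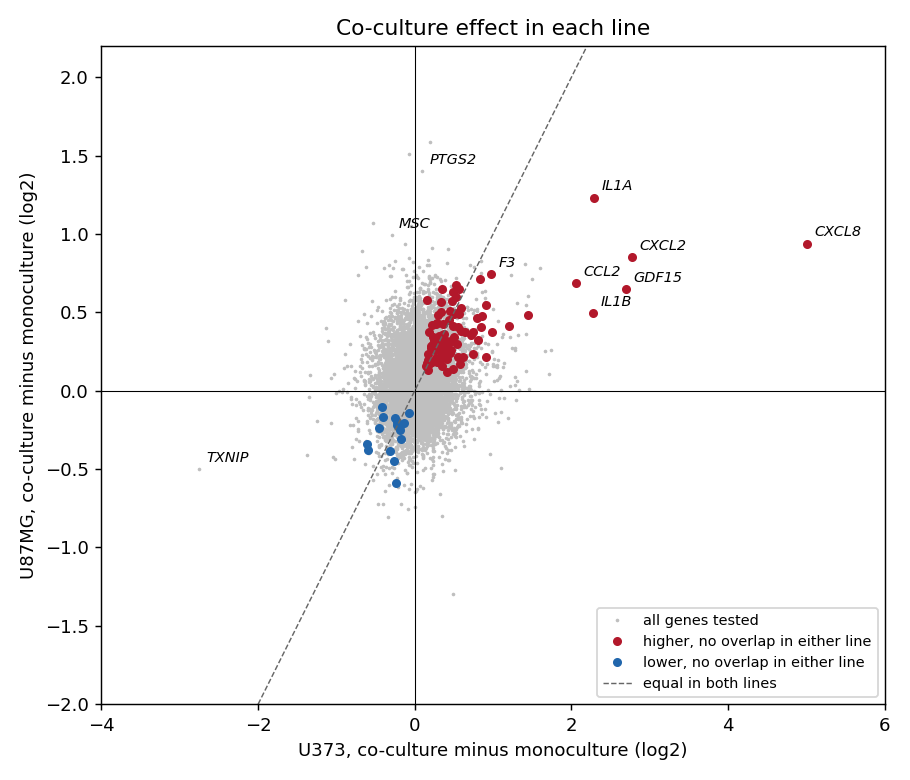
Co-culture effect (log2) in U373 on the horizontal axis and in U87MG on the vertical axis for 10609 genes, with the scales of the axes unequal. The 94 genes in red and the 17 in blue are separated in both lines, and CXCL8, CXCL2, CCL2, IL1B and GDF15 lie far right of the dashed line of equal effects.

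Over all genes tested the effects in the 2 lines, which come from separate arrays, correlated at Pearson r = 0.190 and Spearman rho = 0.175, and 57% of genes had the same sign. Genes are not independent replicates and the arrays were normalized together, so this is a description. When the genes were cut into 3 bins of like size by level, r was 0.310 in the brightest bin and 0.0919 in the dimmest. Of the 638 genes (6.01%) higher in U373 at an unadjusted p under 0.05, 73.7% were also higher in U87MG, beside 64.1% of all genes tested, and of the 376 (3.54%) lower in U373, 46.5% were also lower in U87MG, beside 35.9% of all genes. Leaving out single arrays moved r between 0.108 and 0.244. Leaving out U373 monoculture replicate 2 lowered r to 0.124 and the share of the same sign to 51.4%, and leaving out U87MG monoculture replicate 1 lowered r to 0.108.

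CCL2 had the smallest p. In U373 it stood at 9.64, 9.71 and 9.31 in monoculture and at 11.75, 11.80 and 11.28 in co-culture. In U87MG it stood at 4.12, 3.95 and 3.86 in monoculture, where no array was above background, and at 4.85, 4.72 and 4.40 in co-culture, where 2 of 3 were. The groups did not overlap in either line, although one line expressed the chemokine strongly and the other hardly at all. The main effect was 1.37 (95% confidence interval 0.92 to 1.82, adjusted p = 0.0813), made up of 2.06 in U373, where CCL2 rose (adjusted p = 3.89e-05), and 0.69 in U87MG. The U87MG values lie at the background limit and give no fold change.

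CXCL8, which encodes interleukin 8, had the largest effect of all genes. U373 arrays read 7.66, 7.17 and 8.10 in monoculture and 12.22, 13.77 and 11.97 in co-culture, and U87MG arrays 10.13, 10.45 and 10.01 against 10.49, 11.81 and 11.10. Every co-culture array lay above every monoculture array of its line, and U373 passed from below U87MG to above it on all arrays. The main effect was 2.97 (SE 0.58, adjusted p = 0.163). The effect in U373 was 5.01 and in U87MG 0.94, and the difference between them, 4.07, passed its own test (adjusted p = 0.0368), the only 1 of 10609 genes to do so (0.00943%). Leaving out single arrays gave 0 to 2 genes for this difference. It was 0 without U373 monoculture replicate 1 or 2, without any single U87MG monoculture array, and without U87MG co-culture replicate 1 or 3. The fit with the replicate number as a block gave 2, CXCL8 and CCL2.

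CXCL2 was at background in U373 monoculture at 3.78, 3.64 and 4.29, and read 6.32, 7.70 and 6.02 in co-culture. This is a rise of at least 2.82-fold, taken against the lowest level above background (effect in U373, adjusted p = 0.0059). In U87MG it read 6.02, 6.60 and 6.57 in monoculture and 6.62, 7.51 and 7.63 in co-culture, which do not overlap by a narrow margin. Its main effect was 1.81 (SE 0.35, adjusted p = 0.163). Of 7 chemokines tested, these 3 (42.9%) were higher and 0 lower at an unadjusted p under 0.05, beside 8.47% and 2.31% of all genes. The median effect of the 7 was 0.11, and -0.11 to 0.31 without single arrays. Of the 7, 3 were lower in both lines, beside 2032 of all 10609 genes.

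Among cytokines, the interleukin 1 genes were separated in both lines. IL1A, the cell-associated form of interleukin 1, read 3.3, 3.50 and 3.98 in U373 monoculture, all at background, and 4.58, 7.72 and 5.36 in co-culture, of which 2 arrays were above background. The mean of the 3 was at least 1.63-fold higher. In U87MG it read 6.67, 7.12 and 7.50 against 7.88, 8.71 and 8.40. Its main effect was 1.76 (SE 0.40, adjusted p = 0.252), and the lines' effects differed by 1.06 (adjusted p = 0.890). IL1B, the secreted form, read 5.02, 4.66 and 5.84 against 6.55, 8.22 and 7.58 in U373, where it rose (2.27, adjusted p = 0.0192), and 12.49, 12.30 and 12.47 against 12.56, 13.12 and 13.07 in U87MG. The U87MG level was far higher in both cultures and its effect was 0.49. IL6, a cytokine that signals through STAT3, read 7.22, 7.60 and 8.24 against 8.57, 10.20 and 9.10 in U373 and 7.48, 7.89 and 7.84 against 7.57, 9.02 and 8.97 in U87MG, where replicate 1 of co-culture lay within the monoculture range. Its main effect was 1.19 (adjusted p = 0.304). The ligand LIF and the receptor chain OSMR of the same family had effects of 1.24 and 1.09 in U373 and of 0.28 and 0.09 in U87MG. Of 16 cytokine and receptor genes tested, 7 were higher and 0 lower at an unadjusted p under 0.05, beside 8.47% and 2.31% of all genes. Their median effect was 0.25 against 0.0481 for all genes. A positive effect in both lines was found in 10 of the 16, beside 4016 of all 10609 genes.

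**Figure D2:**
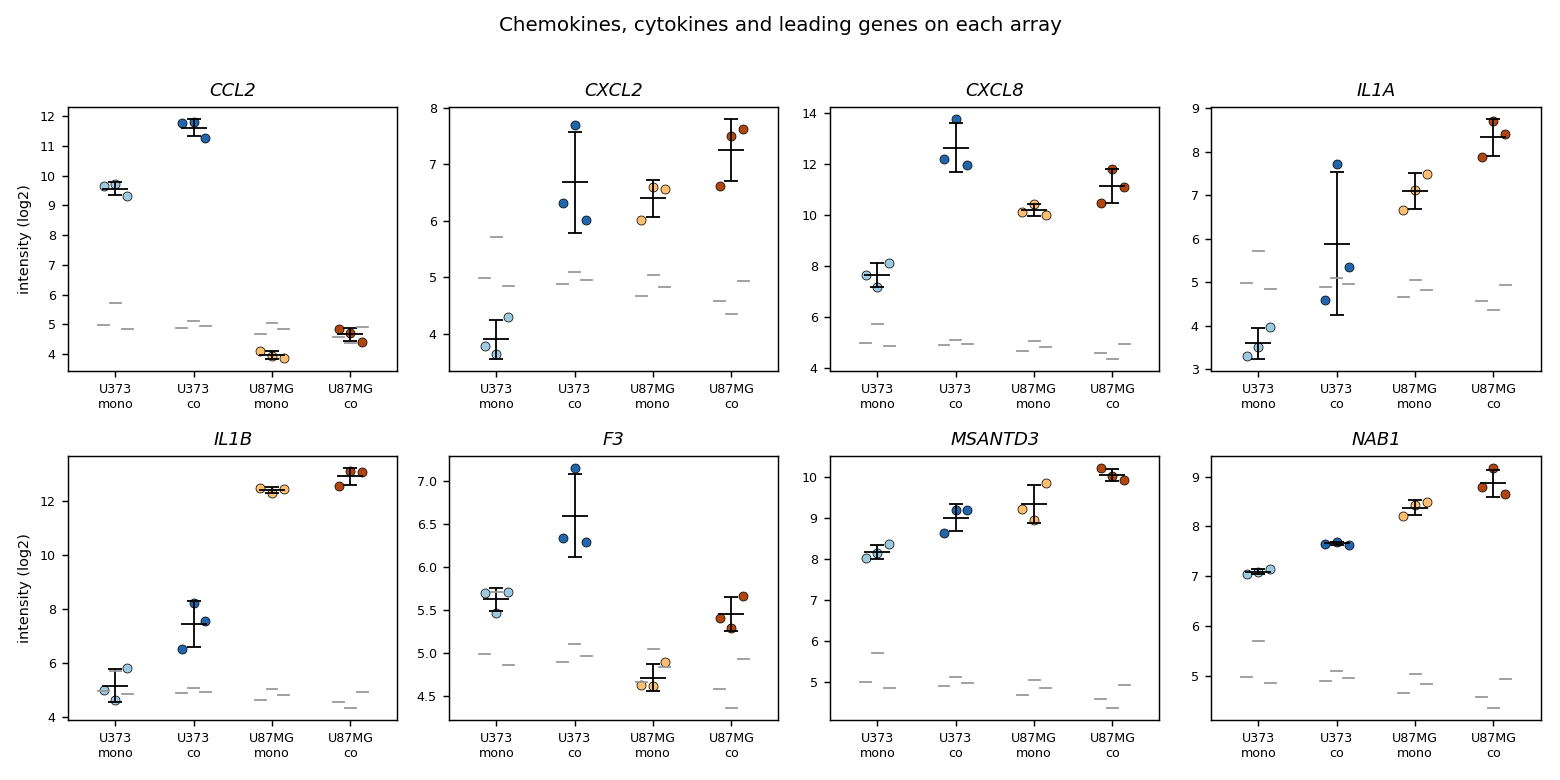
Intensity (log2) of 8 genes on each of the 12 arrays, 3 per group from replicate 1 to 3. Black marks are the mean and SD of a group (n = 3) and grey dashes the background limit of each array. CCL2 lies at background in U87MG monoculture and CXCL2 and IL1A in U373 monoculture.

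The genes of the NF-κB system itself had main effects between 0.01 and 0.96. Of 17 subunits and feedback inhibitors tested, 7 (41.2%) were higher and 0 lower at an unadjusted p under 0.05, beside 8.47% and 2.31% of all genes, and the median effect was 0.47 in U373 and 0.06 in U87MG. ZC3H12A, a ribonuclease that degrades cytokine messengers, had the smallest p among them and read 6.60, 6.51 and 7.36 against 7.31, 8.17 and 7.98 in U373 and 8.04, 7.76 and 7.77 against 8.11, 8.55 and 8.46 in U87MG (main effect 0.76, adjusted p = 0.284). The arrays of U87MG were separated and those of U373 overlapped by 1 array. TNFAIP3, which encodes the inhibitor A20, read 5.18, 5.59 and 5.84 against 6.57, 7.74 and 7.31 in U373, and 6.89, 7.0 and 6.62 against 6.45, 7.78 and 7.05 in U87MG, which overlapped. RELB, a subunit, rose in U373 (1.31, adjusted p = 0.0225) and had an effect of 0.06 in U87MG. The inhibitors NFKBIA and NFKBIZ had main effects of 0.45 and 0.62, and the subunit NFKB2 and its partner BCL3 of 0.40 and 0.36. None of the 17 was separated in both lines, beside only 0.886% of all genes upward and 0.16% downward, so this count does not set them apart. Of 13 other NF-κB target genes, 5 (38.5%) were higher, with VCAM1, an adhesion receptor for leukocytes, at an effect of 1.29 in U373 and at background on all U87MG arrays, and SOD2, a mitochondrial antioxidant enzyme, at 0.71 and 0.25. The remaining 3 were PTGS2, the complement factor CFB and the cyclin CCND1, at main effects of 0.75, 0.39 and 0.31.

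F3 encodes tissue factor, the cell-surface starter of blood coagulation, and was the gene with the second smallest p. It read 5.69, 5.47 and 5.70 in U373 monoculture and 6.33, 7.15 and 6.30 in co-culture. In U87MG it read 4.63, 4.61 and 4.89 against 5.40, 5.28 and 5.67. Its effects were 0.97 in U373 and 0.74 in U87MG, with a difference of 0.23 (SE 0.29). The U87MG monoculture values lie close to the background limits of their arrays (4.66, 5.04 and 4.83), so the size of the U87MG effect is uncertain. The F3 probes gave 0.96 and 0.52 in U87MG and were above background on 11 and 8 of the 12 arrays. The main effect was 0.86 (95% confidence interval 0.55 to 1.16, adjusted p = 0.0997). F3 passed the test when the brightest probe stood for each gene and when U373 co-culture replicate 2 was left out.

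The promoters of 4 of these genes are shown because they hold the pattern below, and the genes are known NF-κB targets. The pattern and the genes were chosen after values and matches were seen. A 9-base pattern, GGANTTTCC, read on both strands, stands for an NF-κB type sequence. It was found in 577 of 35116 promoters of 300 bases (1.64%). Of the 10 genes with a main effect of at least 1 and a promoter in the table, 4 hold it (CXCL2, CXCL8, IL6 and MAP3K8). The promoters of IL1A and IL1B, with main effects of 1.76 and 1.38, do not. F3, with a main effect under 1, holds it too. A gene was counted if any of its promoters held a match, whereas the share of all promoters is per promoter. The windows follow in the direction of transcription with the match in capitals, from RefSeq GRCh38.p14. They lie upstream of the transcription start, at chr4:73740448-73740516 on the plus strand for CXCL8, at chr4:74099234-74099302 on the minus strand for CXCL2, at chr1:94541908-94541976 on the minus strand for F3 and at chr7:22727098-22727166 on the plus strand for IL6.
CXCL8: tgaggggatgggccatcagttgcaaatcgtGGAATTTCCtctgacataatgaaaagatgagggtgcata
CXCL2: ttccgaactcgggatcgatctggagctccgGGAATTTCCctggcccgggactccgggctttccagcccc
F3: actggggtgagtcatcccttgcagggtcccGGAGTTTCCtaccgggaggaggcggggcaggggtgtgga
IL6: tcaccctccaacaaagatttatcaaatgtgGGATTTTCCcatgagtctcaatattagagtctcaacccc
The match begins 91 bases before the start in CXCL8, 77 in CXCL2, 187 in F3 and 72 in IL6. A match is a run of letters, and binding was not measured.

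Genes that answer to low oxygen formed the list with the highest share of higher members of all lists examined. Of 21 tested, 13 (61.9%) were higher and 0 lower at an unadjusted p under 0.05, against 8.47% and 2.31% of all genes, though none passed the adjusted test. The median effect was 0.45, with 0.40 in U373 and 0.31 in U87MG. A positive effect in both lines was found in 19 of 21, beside 4016 of all 10609 genes. The count was 11 of 21 after quantile normalization and 10 to 16 without single arrays. No oxygen level was given for either culture.

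BNIP3L, a mitochondrial protein that marks mitochondria for degradation, had the smallest p of that list. It read 6.85, 7.24 and 7.55 against 7.58, 7.90 and 7.74 in U373, and 8.17, 7.95 and 8.60 against 9.07, 8.97 and 8.71 in U87MG. Both lines were separated. The effects were 0.53 in U373 and 0.68 in U87MG, with a main effect of 0.60 (SE 0.14, adjusted p = 0.268). ERO1A, an oxidase that forms disulfide bonds in the endoplasmic reticulum, read 7.69, 7.71 and 7.85 against 7.90, 8.84 and 8.26 in U373 and 9.29, 9.47 and 9.26 against 9.79, 10.15 and 9.66 in U87MG (main effect 0.56, adjusted p = 0.304). It too was separated in both lines, and the lines' effects were 0.58 and 0.53.

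Further members were chosen after their values were seen. ADM, which encodes the vessel-dilating peptide adrenomedullin, had an effect of 0.66, STC2, a secreted glycoprotein, of 1.11, KDM3A, a histone demethylase, of 0.61, and CA12, a carbonic anhydrase of the cell surface, of 0.77. ADM was separated in U373 and overlapped in U87MG because co-culture replicate 3 read 11.03 beside monocultures of 11.06 to 11.23. STC2 reached 11.77 on U373 co-culture replicate 2 and 8.69 on replicate 1. BNIP3, a relative of BNIP3L, had an effect of 0.32, NDRG1, a stress protein, of 0.54, and ANKRD37 of 0.51. VEGFA, the main angiogenic growth factor, had effects of opposite sign, 0.76 in U373 and -0.31 in U87MG.

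Hypoxia-inducible factors bind a core that contains the letters ACGTG. On either strand these letters occur in 12 of the 18 hypoxia genes with a promoter in the table (66.7%), in 21.4% of all promoters and in 25.6% of the promoters of the genes tested. The first share is per gene, with a match in any of its promoters, and the other shares are per promoter. The list was made from genes known to answer to these factors, so a high share was to be found with or without a difference in co-culture. The windows of 3 members above background on all arrays are shown to give the setting of the core, with every match on either strand in capitals and again in the direction of transcription. They lie at chr14:52695638-52695702 on the minus strand for ERO1A, at chr10:131982023-131982087 on the minus strand for BNIP3 and at chr4:185396649-185396713 on the plus strand for ANKRD37.
ERO1A: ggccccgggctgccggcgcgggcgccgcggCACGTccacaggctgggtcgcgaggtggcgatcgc
BNIP3: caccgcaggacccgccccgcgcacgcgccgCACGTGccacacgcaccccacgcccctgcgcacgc
ANKRD37: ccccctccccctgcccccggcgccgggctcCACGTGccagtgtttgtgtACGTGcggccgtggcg
In ERO1A the core lies on the opposite strand. In BNIP3 and ANKRD37 the 6 capitals hold an overlapping match on each strand, and the ANKRD37 window holds a further match on the strand shown.

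Of 19 genes of glycolysis and glucose transport, 5 (26.3%) were higher and 0 lower at an unadjusted p under 0.05, beside 8.47% and 2.31% of all genes, with a median effect of 0.16. HK2, the hexokinase that commits glucose to glycolysis, read 5.98, 6.36 and 6.44 against 6.87, 7.03 and 7.03 in U373 and 7.75, 8.10 and 8.15 against 8.48, 8.26 and 8.33 in U87MG. It was separated in both lines, with a main effect of 0.53 (SE 0.12, adjusted p = 0.252). SLC2A1, the common glucose transporter, read 11.22, 11.33 and 10.89 against 11.50, 11.63 and 11.27 in U373 and 10.15, 10.20 and 10.32 against 10.93, 10.61 and 10.56 in U87MG, an effect of 0.40. U373 overlapped by 1 array and U87MG was separated. The other 3 were the enolase ENO2 (0.61), the neuronal type glucose transporter SLC2A3 (0.50) and the kinase PGK1 (0.30). TXNIP, whose product blocks glucose uptake and whose RNA follows intracellular glucose, had the lowest effect of all genes, -1.63 (95% confidence interval -2.68 to -0.57, adjusted p = 0.333). In U373 it read 7.27, 7.80 and 7.07 against 5.11, 4.25 and 4.53, whereas in U87MG it was above background on 1 array of each culture and read 4.01, 3.04 and 6.13 against 5.04, 3.28 and 3.36. The effect therefore rested on U373. The other 4 genes tested of the glucose-sensing list, which gave no p under 0.05, had main effects of -0.06 for ARRDC4, another gene of the arrestin family of TXNIP, 0.36 for ARRDC3, 0.24 for ARRDC2 and 0.15 for MLX, a partner of the glucose-sensing transcription factors, and the median of the 5 was 0.15.

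Among the targets of ATF4, SLC38A2 had the smallest p and effects of like size in both lines. It encodes an amino acid transporter and read 8.74, 8.72 and 8.83 against 9.02, 9.49 and 9.24 in U373 and 8.43, 8.63 and 8.90 against 9.12, 9.58 and 9.14 in U87MG. The arrays were separated in both lines. The effects were 0.49 in U373 and 0.63 in U87MG, with a main effect of 0.56 (SE 0.12, adjusted p = 0.247). GDF15, a secreted stress hormone, was separated too, at 8.09, 8.70 and 8.26 against 9.27, 13.01 and 10.86 in U373 and 9.33, 8.87 and 9.06 against 9.58, 9.86 and 9.77 in U87MG. The 3 U373 co-culture arrays spanned more than 3 units, with replicate 2 highest and replicate 1 lowest. The same order held for ASNS, asparagine synthetase, at 7.67, 9.83 and 8.49 in U373 co-culture, and for DDIT3, the stress factor CHOP, at 7.39, 11.75 and 9.22. The ATF4 list, which holds ATF4 itself, shares STC2, DDIT4 and VEGFA with the hypoxia list, and STC2 and DDIT4 were counted as higher in both. Of 30 genes of the ATF4 list tested, 8 (26.7%) were higher and 0 lower at an unadjusted p under 0.05, beside 8.47% and 2.31% of all genes. The medians of the list were 0.54 in U373 and 0.02 in U87MG. The count was 16 without U373 co-culture replicate 1, 3 without replicate 2, 4 without U373 monoculture replicate 1 or 2, U87MG monoculture replicate 1 or U87MG co-culture replicate 2, and 5 without U87MG co-culture replicate 3. Of 17 chaperones and other genes of the endoplasmic reticulum, 5 (29.4%) were higher, beside the same 8.47%, and the medians were 0.31 and 0.22, with EDEM1, which leads misfolded glycoproteins to degradation, at 0.62, PDIA4, a disulfide isomerase, at 0.30, the transcription factor XBP1 at 0.52, and the chaperones DNAJB9 and HYOU1 at 0.77 and 0.33. This count was 2 without U373 monoculture replicate 2, U373 co-culture replicate 2 or U87MG co-culture replicate 2, and 3 without U373 monoculture replicate 1 or U87MG monoculture replicate 3.

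**Figure D3:**
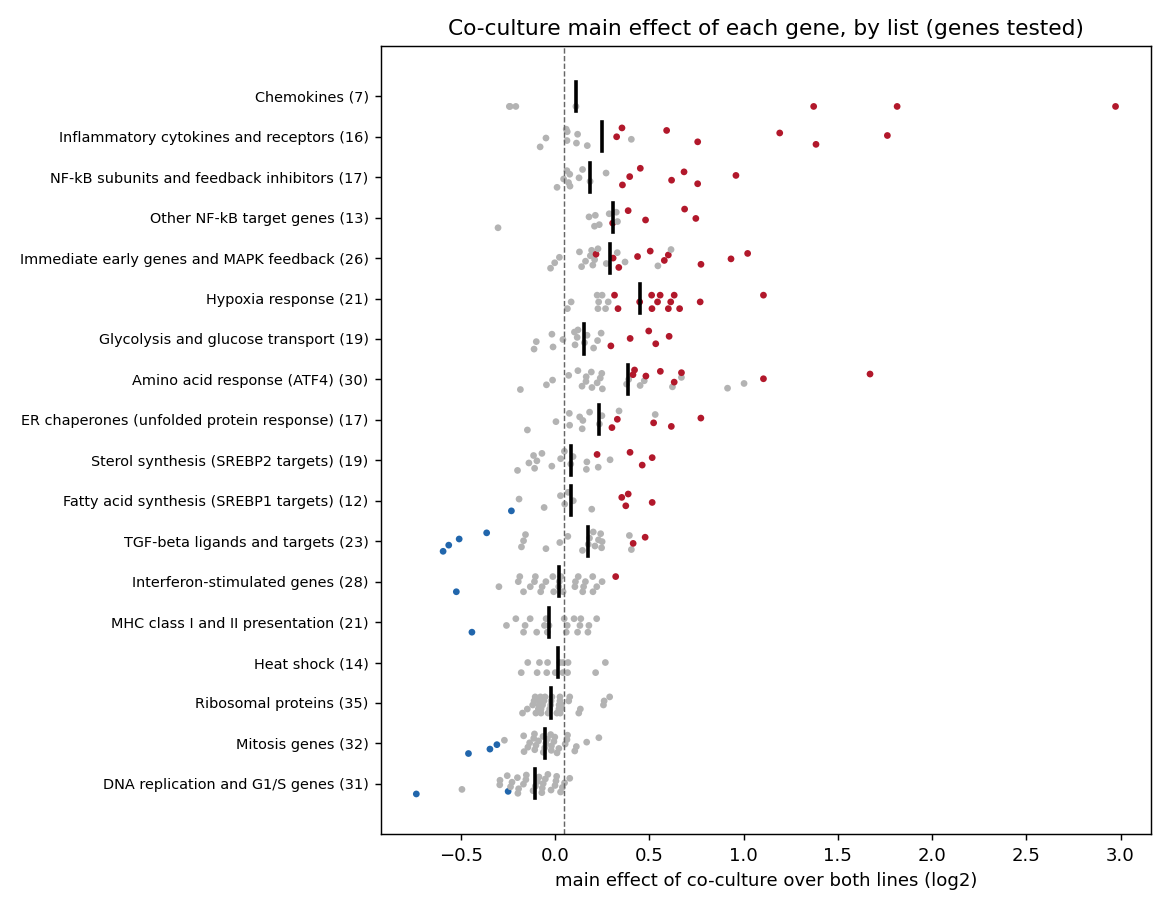
Main effect of co-culture (log2, horizontal axis) of each tested gene in 18 gene lists, with the number tested in parentheses. Red and blue points have an unadjusted p under 0.05, higher and lower, black bars are list medians and the dashed line is the median of all genes (0.0481); none of the points passed the adjusted test.

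Early response genes and feedback inhibitors of the MAPK pathway had a median effect of 0.58 in U373 and 0.00 in U87MG over 26 genes, of which 10 (38.5%) were higher and 0 lower at an unadjusted p under 0.05, beside 8.47% and 2.31% of all genes. The count was 6 with the replicate number as a block and 5 after quantile normalization. It was 3 without U373 monoculture replicate 1 or U373 co-culture replicate 2, and 4 without U373 monoculture replicate 2 or U373 co-culture replicate 3. Without U87MG monoculture replicate 2 it was 5. FOS, an immediate early transcription factor, read 4.43, 4.05 and 5.53 against 5.06, 6.96 and 6.32 in U373 and 4.48, 4.07 and 5.43 against 5.26, 4.92 and 5.61 in U87MG, which overlapped in both lines. MAP3K8, a kinase that couples NF-κB signaling to MAPK, read 4.06, 3.47 and 4.35 against 4.71, 6.07 and 5.33 in U373. The monoculture arrays were at background, 2 of the co-culture arrays were above it, and the mean of the 3 co-culture arrays was at least 1.14-fold higher. MYC, the growth-promoting transcription factor, had effects of 1.42 in U373 and 0.13 in U87MG.

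Of 19 sterol synthesis genes, 4 (21.1%) were higher and 0 lower at an unadjusted p under 0.05, and of 12 fatty acid synthesis genes 4 (33.3%) were higher and 1 (8.33%) lower, beside 8.47% and 2.31% of all genes. The median effect of the sterol genes was -0.02 in U373 and 0.22 in U87MG, and that of the fatty acid genes 0.23 and 0.04. IDI1, an isomerase of the sterol pathway, read 5.78, 6.07 and 6.34 against 6.41, 6.61 and 6.78 in U373 and 6.01, 6.39 and 6.37 against 6.95, 6.86 and 6.44 in U87MG. It was separated in both, with effects of 0.54 and 0.50 (main effect 0.52, SE 0.13, adjusted p = 0.304). INSIG1, the sterol-sensing brake of the pathway, had effects of 0.39 and 0.41. FADS1, a desaturase of polyunsaturated fatty acids, had effects of 0.40 and 0.38 and read 9.70, 9.36 and 9.84 against 9.80, 10.05 and 10.25 in U373, which overlapped, and 10.09, 9.94 and 9.94 against 10.22, 10.54 and 10.34 in U87MG, which did not. FADS2, its partner, had 0.50 and 0.53, and SCD, which makes monounsaturated fatty acids, 0.38 and 0.37. The remaining ones past that p were CYP51A1 (0.46) and DHCR7 (0.22) of sterol synthesis, the elongase ELOVL5 (0.35) and, as the lower one, the carboxylase ACACA (-0.23, of which the sign turned with its brightest probe). The sterol count was 2 after quantile normalization or without U87MG co-culture replicate 1.

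**Figure D4:**
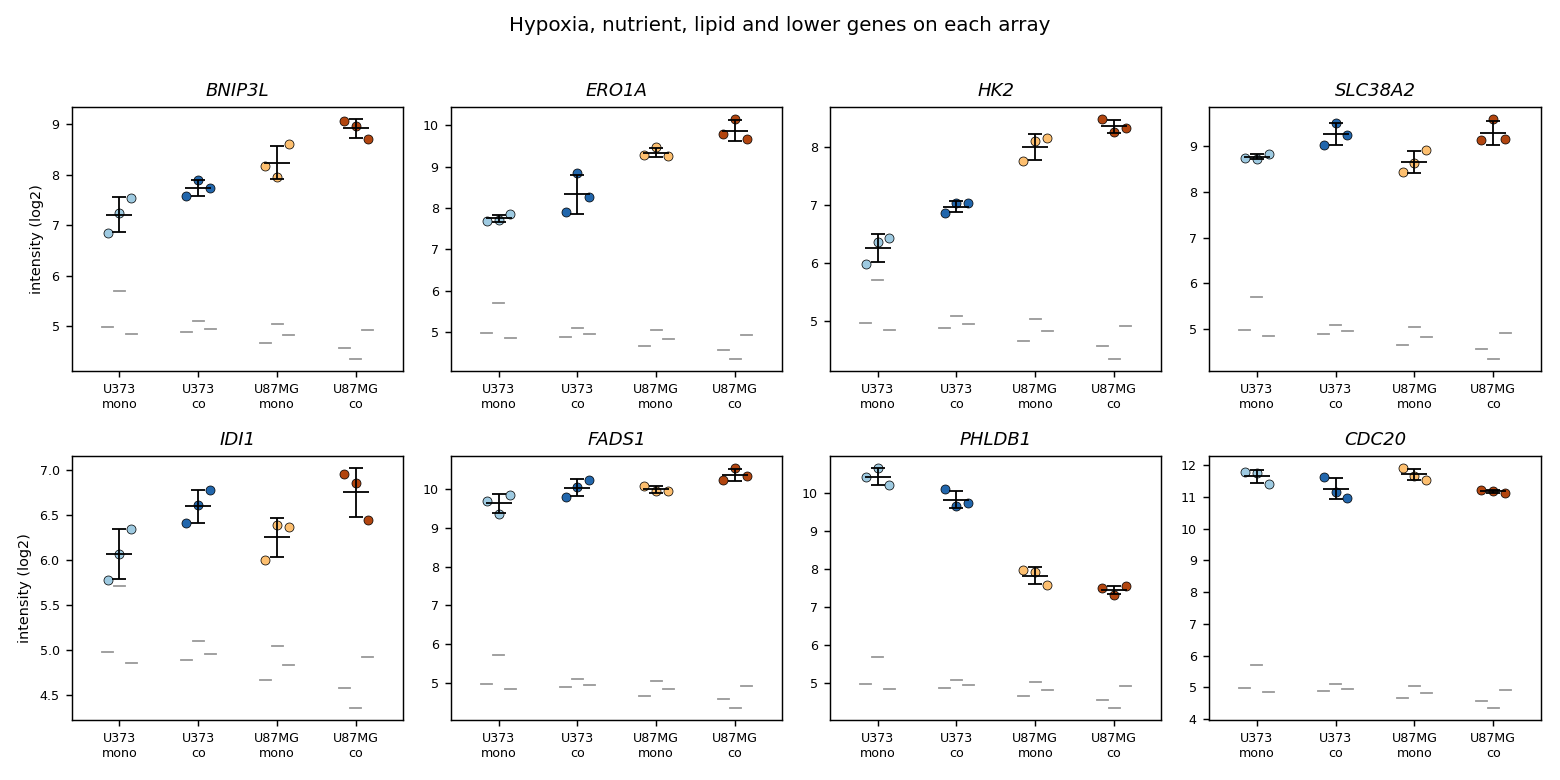
Intensity (log2) of 8 genes on each of the 12 arrays, drawn as in the plot of the chemokines: dots are replicates 1 to 3, black marks the mean and SD (n = 3), grey dashes the background limits. BNIP3L, ERO1A, HK2, SLC38A2 and IDI1 are separated upward and PHLDB1 downward in both lines, FADS1 and CDC20 in U87MG only.

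Other genes with small p-values were chosen after their values were seen. NAB1, a corepressor of the EGR transcription factors, read 7.04, 7.09 and 7.14 against 7.65, 7.70 and 7.63 in U373 and 8.21, 8.43 and 8.49 against 8.79, 9.17 and 8.64 in U87MG. Its main effect was 0.53 (SE 0.10, adjusted p = 0.163), with 0.57 and 0.49 in the lines. MSANTD3 read 8.01, 8.14 and 8.36 against 8.62, 9.20 and 9.19 in U373 and 9.22, 8.95 and 9.85 against 10.22, 10.02 and 9.92 in U87MG (main effect 0.78, adjusted p = 0.163). Both were separated in both lines and above background on all 12 arrays. SFPQ, a splicing factor, had a main effect of 0.73 from 1 dim probe that was at background on all 6 monoculture arrays and above it on all 6 co-culture arrays, at 5.22, 5.16 and 5.0 in U373 and 5.48, 5.15 and 4.94 in U87MG. In U87MG this is at least 1.27-fold. SFPQ passed the filter of at least 3 arrays above background through its co-culture arrays alone. The limits differ by array, and that of U373 monoculture replicate 2, 5.71, lies above all U373 co-culture values of this probe. ABCA1, the cholesterol exporter, was separated in both lines at effects of 1.20 and 0.41, as were NFIL3, a leucine zipper repressor, at 1.45 and 0.48, SLC39A14, a zinc and iron importer, at 0.86 and 0.48, and FAM162A, a mitochondrial protein induced by hypoxia, at 0.53 and 0.60. CD47, the signal that keeps macrophages from engulfing a cell, had 0.91 and 0.21, with U373 monoculture at background.

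Among the lower genes, PHLDB1, a cytoskeletal adaptor of the cell cortex, read 10.44, 10.67 and 10.21 against 10.11, 9.67 and 9.75 in U373 and 8.0, 7.94 and 7.59 against 7.50, 7.34 and 7.55 in U87MG. It was separated in both, with a main effect of -0.49 (SE 0.12, adjusted p = 0.304). FOXD1, a forkhead transcription factor, read 10.82, 10.74 and 10.79 against 10.44, 10.25 and 10.65 in U87MG and was at background on all U373 arrays, so that only U87MG gives a measured value. RGCC, a regulator of the cell cycle, fell in U373 by 1.38 on the log2 scale (adjusted p = 0.0333) and was near background in U87MG.

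Of 32 mitosis genes, 0 were higher and 3 (9.38%) lower at an unadjusted p under 0.05, and of 31 genes of DNA replication 0 were higher and 2 (6.45%) lower, beside 8.47% and 2.31% of all genes. The median effects were -0.05 and -0.10, and 16 and 15 members were lower in both lines, beside 2032 of all 10609 genes. CDC20, the activator of the ubiquitin ligase that ends mitosis, read 11.78, 11.75 and 11.39 against 11.63, 11.16 and 10.97 in U373 and 11.90, 11.66 and 11.54 against 11.21, 11.19 and 11.11 in U87MG. The U373 arrays overlapped and the U87MG arrays did not (main effect -0.46, adjusted p = 0.327). KIF20A, a kinesin of cell cleavage, had an effect of -0.35 and MKI67, the proliferation marker Ki-67, of -0.31. E2F2, a transcription factor of the replication list, had an effect of -0.74 and differed by over 1 unit among U373 monocultures, and RPA2, which coats single-stranded DNA, had -0.25. The count of lower replication genes was 9 without U373 co-culture replicate 1, 0 without U373 monoculture replicate 1, U373 co-culture replicate 2 or 3 or U87MG co-culture replicate 3, and 1 without U373 monoculture replicate 2 or U87MG monoculture replicate 1. In the TGF-β and BMP list, 2 of 23 (8.70%) were higher, close to the 8.47% of all genes, and 4 (17.4%) were lower, beside 2.31%. Without U373 co-culture replicate 1 there were 4 higher, and without U87MG monoculture replicate 1 or U87MG co-culture replicate 3 there were 2 lower. The lower ones were SMAD6, an inhibitor of BMP signaling, at -0.59, and ID1 and ID3, targets of that pathway, at -0.56 and -0.51, with the smooth muscle actin ACTA2 at -0.36. The higher ones were the inhibitor SMAD7 at 0.41 and GREM1, a secreted BMP antagonist, at 0.48. GREM1 read 7.80, 7.78 and 8.10 against 8.56, 8.56 and 8.24 in U87MG and was at background in U373.

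Matrix and adhesion genes were mixed. ITGB3, an integrin subunit, had an effect of 0.84, VCAN, a large matrix proteoglycan, of 0.42 and PLOD2, the collagen lysyl hydroxylase, of 0.55. None of them was separated in both lines, beside only 0.886% of all genes upward and 0.16% downward. Of 24 adhesion genes 5 (20.8%) were higher and 1 (4.17%) lower at an unadjusted p under 0.05, beside 8.47% and 2.31% of all genes. Of 28 genes of collagens and collagen processing 4 (14.3%) were higher and 0 lower, beside the same shares. The count of higher adhesion genes was 3 without U373 monoculture replicate 1, U87MG monoculture replicate 1 or U87MG co-culture replicate 2. That of genes of collagens and collagen processing was 7 without U373 monoculture replicate 3 or U373 co-culture replicate 1. It was 2 without U373 monoculture replicate 1 or U373 co-culture replicate 2 or 3. Beside those named these were ITGAV (0.48), LAMA4 (0.34), SPP1 (0.45) and, lower, ITGA7 (-0.33), all of cell adhesion, and the collagens COL6A1 (0.31), COL6A2 (0.32) and COL13A1 (0.43). Among the 326 tested proteases and homologues of the study's list, 34 (10.4%) were higher and 6 (1.84%) lower, beside 8.47% and 2.31% of all genes, and 23 were higher and 15 lower after quantile normalization. MMP14, a membrane-bound collagenase that also activates other metalloproteases, read 6.11, 6.48 and 6.24 against 6.61, 6.81 and 6.89 in U373 and 7.02, 6.92 and 6.72 against 7.21, 7.31 and 7.39 in U87MG, separated in both (main effect 0.45, SE 0.10, adjusted p = 0.252). PAPPA, a protease that frees IGF from its binding proteins, read 5.68, 5.80 and 5.47 against 6.97, 7.72 and 6.53 in U373 and 9.46, 9.28 and 9.39 against 10.20, 10.17 and 9.40 in U87MG (main effect 0.99, adjusted p = 0.247). The first is separated and the second overlaps by 1 array. Of the 8 tested candidate genes of the study 0 reached an unadjusted p under 0.05. CTSK, cathepsin K, read 9.99, 9.82 and 9.68 against 9.88, 10.38 and 9.92 in U87MG and had effects of -0.50 in U373 and 0.23 in U87MG. Its probe was above background on 10 of the 12 arrays. The U87MG values lie far above the limits, so not all U373 arrays were above background and the U373 effect gives no fold change.

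Several lists stayed near the median of all genes. Of 35 ribosomal protein genes and of 14 heat shock genes, 0 were higher and 0 lower at an unadjusted p under 0.05, with medians of -0.02 and 0.01. Of 28 interferon-stimulated genes 1 (3.57%) was higher and 1 (3.57%) lower, beside 8.47% and 2.31% of all genes: IFITM3 (0.32), which blocks virus entry, and ISG15 (-0.52), a ubiquitin-like modifier. Without single arrays 1 to 3 were higher, 3 without U373 co-culture replicate 2, and 1 to 2 lower. Of 21 genes of antigen presentation, 0 were higher and 1 was lower, CIITA (-0.44), the activator of MHC class II genes.

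Within the lines, the test of the 4 groups called 12 genes in U373, 9 higher (0.0848% of those tested) and 3 lower (0.0283%), and 0 in U87MG, where 742 genes had an unadjusted p under 0.05 (6.02% of those tested higher and 0.971% lower). Beyond the chemokines, IL1B, RELB and RGCC, these were SLC6A12, a betaine transporter, at 1.42, TGFA, a ligand of the EGF receptor, at 1.28, FLVCR1, a heme exporter, at 1.10, and COL13A1, a membrane collagen, at 1.07 among the higher, and EFHD1, a mitochondrial calcium-binding protein, at -1.35, and ALOX5AP, which serves leukotriene synthesis, at -0.91 among the lower. In U87MG their effects were 0.36, 0.04, -0.14, -0.20, -0.04 and 0.01 in the same order, and EFHD1 and ALOX5AP were at background there. PTGS2, the inducible cyclooxygenase, read 6.25, 6.53 and 6.47 against 7.14, 8.89 and 7.43 in U87MG and was at background in U373 on all 6 arrays. It passed neither the test in U87MG nor that of a difference between the lines. Apart from CXCL8, none of the 12 passed the test of a difference between the lines (adjusted p from 0.215 for CCL2 to 0.681 for RGCC), so they are neither shown to be shared nor shown to differ; with the replicate block CCL2 passed it too. The U373 count rose from 12 to 23 with the replicate block and to 159 without U373 co-culture replicate 1.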

How the data were processed

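RNA of 12 cultures was hybridized to Illumina HumanWG-6 v3 arrays. The authors deposited natural log (ln) intensities after variance stabilization normalization of the BeadStudio signals, which were rescaled here to log2. The base of the logarithm was checked on the non-normalized signals above 1000, against which the slope was 0.9943 to 0.9976; that table has 24 columns without sample names and served no other purpose. The scale flattens near background, so differences of dim genes are understated.

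Of 48803 probes, 27578 were named for 1 gene (symbols from RefSeq GRCh38.p14), 13 for several and 21212 for none. Probes of a gene were averaged, and 5913 of 18665 genes had more than 1. An array's background limit was set 3 SD over the mode of its values, with the SD taken from the side below the mode. Genes with a probe above it on at least 3 arrays were tested. The number of arrays limits the precision.

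The main test was limma's moderated test (limma 3.58.1 in R 4.3.3; statmod 1.5.0) in a model with cell line and culture, 15.9 degrees of freedom, and Benjamini-Hochberg adjustment over all genes tested at 0.05. Effects per line and their difference came from a model of 4 group means, with 14.9 degrees of freedom. The scripts were tested on simulated data. A gene was called separated when the 3 arrays of one culture all lay on one side of the 3 of the other. Where none of a group's 3 arrays was above background, a fold change is a bound, the mean of the higher group against the mean, over the arrays of the lower group, of the lowest level above background; it is given where it exceeds 1, and IL1A and MAP3K8 were above background on 2 of 3 arrays of the higher group. Tables and figures were made in Python 3.11.15 with pandas 2.3.3 and matplotlib 3.10.9.

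The comparison, the gene lists and the rule for named genes were chosen with earlier results of these data known. The rule took every gene past the main test, at most 2 members with the smallest p from each list of which none passed, the 12 genes earlier called in U373, the study's candidate genes and the 5 smallest p of the difference; not all are printed, and many further genes were named after their values were seen. Probes of 1 gene can disagree.

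Whether replicate numbers pair the arrays was checked on the correlation of deviations from group means. Monoculture and co-culture of the same number gave 0.127, 0.177 and 0.150 in U87MG and 0.194, -0.102 and 0.558 in U373. Between the lines, same-numbered arrays gave 0.167, 0.153 and 0.133 in co-culture and 0.124, 0.116 and 0.205 in monoculture. Not every pair of monoculture and co-culture exceeded 0.1, so the main comparison was fitted without the block. The counts of genes past the adjusted test are also given with the block. Of the gene lists, only that of early response and MAPK feedback genes is also given with the block.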

Additional observations from a re-analysis of the deposited data

Results flagged for a closer look

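The co-culture effect on CXCL8 differed between the lines, by 4.07 on the log2 scale (limma, adjusted p = 0.0368 for the difference itself). U373 arrays read 7.66, 7.17 and 8.10 in monoculture and 12.22, 13.77 and 11.97 in co-culture, and U87MG arrays 10.13, 10.45 and 10.01 against 10.49, 11.81 and 11.10. Both probes of the gene had a larger effect in U373 (5.27 and 4.75) than in U87MG (0.92 and 0.96), and the difference was not tested per probe. The difference did not pass its test without U373 monoculture replicate 1 or 2, without any single U87MG monoculture array, or without U87MG co-culture replicate 1 or 3.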

How the results depend on the processing

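For the main effect over both lines the count of called genes was 0 and stayed 0 without a filter on dim genes, with a filter on 6 arrays, with a lower or higher background limit, with further quantile normalization, with array weights, with the replicate block (0 calls, 1350 genes at an unadjusted p under 0.05), with the block within a line and, chosen after seeing the data, over genes above background in both lines or without U373 monoculture replicate 2 and U87MG co-culture replicate 2 together (641 at an unadjusted p under 0.05). It was 2 with the brightest probe of each gene (CCL2 and F3), 3 for the mean of both lines in the model of 4 group means and 1 with a trended and robust variance (CCL2). Without single arrays it ranged from 0 to 2: without U373 co-culture replicate 2 it was 2 (F3 and IL1A) and without U87MG co-culture replicate 3 it was 1 (CCL2).

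In U373 the count of 12 became 23 with the replicate block, 3 from the 6 U373 arrays alone and 2 without the pair of arrays named above, and ranged from 3 to 159 without single arrays. In U87MG the 0 became 3 from its own 6 arrays (FGD3, GPR84 and MSC), and ranged from 0 to 2. The difference of the lines, 1 gene, became 2 with the block (CCL2 and CXCL8) and 0 without the pair of arrays, and ranged from 0 to 2. Genes separated in both lines numbered 94 higher and 17 lower, and 51 and 50 after quantile normalization. The cause of these shifts was not tested. Of the effects of named genes, that of CD74 (-0.21, unadjusted p = 0.0797) became 0.0575 and that of ACACA (-0.23, unadjusted p = 0.0292) became 0.0269 with the brightest probe. A normalization from the non-normalized signals (neqc) was not run, since its columns carry no sample names. Of the 12 arrays, 9 correlated best with the array of the same number in the other culture of their line.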
